A study of Mus musculus with 3 samples.

Results

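The genes described here are 10 members of the bone morphogenetic protein (BMP) pathway, out of 27998 genes in the count tables of the study. They are the ligands *Bmp2*, *Bmp4*, *Bmp5* and *Bmp7*, the receptors *Bmpr1a* and *Bmpr2*, the secreted antagonists *Nog* and *Grem1*, and the target genes *Id1* and *Id3*. They were chosen by name, to cover the roles of the pathway, and all 10 were found in the tables. Their transcripts were counted in 4 classes of cells, which carry *Epcam* (epithelium), *Pdgfra* (mesenchyme), *Cdh5* (endothelium) or *Ptprc* (blood cells), and compared by genotype.

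The study dissociated fetal mouse thymic lobes of embryonic day 13 to 13.5 and sequenced the 3′ ends of transcripts in single cells, counting captured molecules by their unique molecular identifiers (UMIs). It made 3 libraries from C57BL/6 embryos, 1 per genotype: a wild-type control library, a library labelled Tbx1 neo2/neo2 for its genotype, and a Foxn11089/1089 library. Tbx1 neo2/neo2 embryos carry a neomycin cassette in an intron of both *Tbx1* alleles and model the reduced *Tbx1* dose of 22q11.2 deletion syndrome, and Foxn11089/1089 embryos carry a short deletion in the coding sequence of *Foxn1*, the transcription factor that directs thymic epithelial differentiation. How many embryos went into a library is not stated, so differences between embryos of a genotype cannot be told apart from differences between genotypes.

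BMP ligands are secreted dimers that bind receptor pairs on the cell surface, and the receptors phosphorylate SMAD proteins that switch on targets such as the Id genes. Antagonists such as noggin and gremlin bind the ligands outside the cell and keep them from the receptors. In the third pharyngeal pouch, which gives rise to thymus and parathyroid, the balance of BMP ligand and antagonist is known to help set where each organ forms, and mesenchyme around the lobes is a known source of ligand.

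The control library held 82936619 UMIs in 6410 barcodes, the Tbx1 neo2/neo2-labelled library held 137498422 in 5759, and the Foxn11089/1089 library held 204655055 in 12447. After removal of barcodes with fewer than 200 genes or with 20% or more of their UMIs on mitochondrial genes, 5932, 5516 and 11772 cells remained in that order of libraries. A kept cell belonged to a class when it had at least 2 UMIs of the class gene and this gene held at least 80% of its UMIs of the 4 class genes. Levels are UMIs of a gene per 1000000 UMIs of the class in a library (CPM), and values in brackets after a level or ratio are its 95% interval. The intervals cover counting error only, and no test between genotypes was possible with 1 library each.

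The targeted genes were read before any other. *Tbx1* (ENSMUSG00000009097, chr16:18580979-18590671, minus strand of GRCm38) was at 1.39 CPM (1.15 to 1.67) over all kept cells of the control library. It was at 4.81 CPM (4.44 to 5.19) in the Tbx1 neo2/neo2-labelled library and at 5.43 CPM (5.12 to 5.76) in the Foxn11089/1089 library. *Tbx1* was thus not lower in the library that carries its mutation by label, and counts of 3′ ends do not show whether the cassette is present. For that reason each direction drawn from it is a direction of the Tbx1 neo2/neo2-labelled library, not of reduced *Tbx1*. Within classes, *Tbx1* in Epcam-positive cells was at 0.854, 5.33 and 7.58 CPM in the control, Tbx1-labelled and *Foxn1* libraries, while in Pdgfra-positive cells it was at 5.33, 5.52 and 3.47 CPM. *Foxn1* (ENSMUSG00000002057, chr11:78357577-78386558, minus strand) was at 84.7, 106 and 148 CPM in Epcam-positive cells of the same libraries. Its transcript was therefore highest in the Foxn11089/1089 library, and a deletion in the coding sequence would not show in these counts.

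Few barcodes were shared between libraries. The control library shared 16 kept barcodes with the Tbx1 neo2/neo2-labelled library, 0.290% of the smaller library, and 17 (0.287%) with the Foxn11089/1089 library, and the compared libraries shared 24 (0.435%) with each other. Likely doublets were 329 barcodes of the control library, 265 of the Tbx1 neo2/neo2-labelled library and 1239 of the Foxn11089/1089 library, and 314, 236 and 1189 of them were kept cells. They were not taken out of the classes, and the ratios of the members to the control were also computed without them.

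The Epcam-positive class held 1985, 809 and 4082 cells of the control, Tbx1-labelled and *Foxn1* libraries, with median depths of 16582, 46025 and 20964.5 UMIs. The Pdgfra-positive class held 663, 1339 and 2265 cells (9488, 25709 and 14501 UMIs), and the Ptprc-positive class 578, 299 and 319 (20301, 61692 and 28876 UMIs). The Cdh5-positive class was small, with 51, 94 and 108 cells (17013, 22495 and 43723.5 UMIs). The class names fit the cells: besides the class genes themselves, all of 6 epithelial, 5 mesenchymal, 5 endothelial and 6 blood cell markers were at least 2-fold higher in their class than in the other cells of the library, in each of the 3 libraries. Kept cells in no class also held such markers. All mesenchymal markers had 30048, 67214 and 69422 UMIs there, against 32501, 250340 and 197755 in the Pdgfra-positive class. Blood cell markers had 34392, 16260 and 8700 there, against 26522, 37715 and 20797 in the Ptprc-positive class. A larger part of both lists thus lay outside its class in the control, and what this does to the ratios was not tested beyond other UMI thresholds. Because cells differ in depth between libraries, shares of cells with a UMI are given as sequenced and again after random thinning of each cell to 2000 UMIs. Cells below that depth could not be thinned: 16, 8 and 53 in the Epcam-positive class, 6, 3 and 1 in the Pdgfra-positive, 3, 4 and 1 in the Cdh5-positive and 2, 0 and 1 in the Ptprc-positive class. The median share of mitochondrial UMIs was 2.56%, 5.64% and 5.63% in the Epcam-positive class, 2.79%, 6.31% and 5.72% in the Pdgfra-positive, 3.23%, 7.44% and 4.84% in the Cdh5-positive and 2.81%, 5.61% and 5.19% in the Ptprc-positive class. It was thus higher in both compared libraries in each class, and its part in the differences described below was not tested.

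Red blood cells, defined by at least 50% hemoglobin UMIs and no UMI of the class genes, gave the background of free RNA in 329, 334 and 1820 cells with median depths of 8352, 18363.5 and 12337 UMIs. *Id1* reached 1.22%, 5.39% and 11.0% of them, and *Id3* 6.69%, 15.0% and 15.5%. At 2000 UMIs these shares were 0.935%, 1.21% and 1.98% for *Id1* and 1.87%, 2.73% and 2.59% for *Id3*. Background from free RNA was thus largest for these abundant targets. For each of the other 8 members the red blood cells of a library held 25 UMIs or fewer. *Bmp4* had 0, 0 and 8 UMIs there, *Bmp5* 0, 1 and 0, *Nog* 0, 0 and 1, and *Grem1* 1, 0 and 0.

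Genes in general shifted between libraries, so the median gene is given for each class. Among genes with at least 30 UMIs in a class, the median log2 ratio of the Tbx1 neo2/neo2-labelled library to the control was 0.38 in Epcam-positive, 0.34 in Pdgfra-positive, 0.41 in Cdh5-positive and 0.35 in Ptprc-positive cells. For the Foxn11089/1089 library these medians were 0.29, 0.14, 0.25 and 0.23. A relative log2 ratio below is the log2 ratio of a gene minus this median.

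The comparison of the Tbx1 neo2/neo2-labelled library with the control asks how ligands, antagonists and targets differ in lobes labelled as the model of 22q11.2 deletion syndrome. In Epcam-positive cells, 5 of 10 tested members were at least 2-fold higher (*Bmp5*, *Bmpr1a*, *Nog*, *Grem1* and *Id1*) and 0 were lower, where 17.7% of 15660 tested genes were higher and 5.77% lower. The members' median log2 ratio was 0.96. Relative to the median gene, 3 members stayed past 2-fold (*Bmp5*, *Nog* and *Grem1*), with 7.97% of all genes higher and 11.4% lower. *Bmpr1a* and *Id1* thus lay above the median gene by less than 2-fold, and *Bmp2*, *Bmp4*, *Bmp7* and *Id3* lay below it.

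Mesenchyme of the same library showed fewer members past 2-fold. In Pdgfra-positive cells 2 of 10 were higher (*Bmp5* and *Nog*) and 0 lower, against 16.6% and 4.87% of 14153 genes, a share near the background. Their median log2 ratio was 0.49. Relative to the median gene *Bmp5* and *Nog* stayed higher and *Id3* was lower by over 2-fold, where 9.55% of genes were higher and 9.87% lower.

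Among Cdh5-positive cells, 4 of 6 tested members were higher (*Bmp4*, *Bmpr1a*, *Bmpr2* and *Id1*) and 0 lower, against 25.9% and 4.94% of 10432 genes. The median log2 ratio of these 6 was 1.80, and it was the same with *Bmp4* and *Bmpr1a* set at their lower bounds, where that of all genes was 0.40. Relative to the median gene the same 4 stayed past 2-fold, with 15.1% of genes higher and 11.8% lower. *Bmp4* and *Bmpr1a* had 0 UMIs in the control class and entered the tested genes through the compared libraries alone, so their part in this count had to be on the higher side. In Ptprc-positive cells 3 of 5 tested members were higher (*Bmp2*, *Bmpr1a* and *Id1*) and 0 lower, against 13.4% and 3.11% of 12104 genes, with a median log2 ratio of 1.12. Relative to the median gene only *Bmp2* remained past 2-fold of these 5, where 5.58% of genes were higher and 7.49% lower. *Bmpr1a*, at a relative ratio of 2.0, fell short of the line through the 0.5 UMI added to both sums.

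The comparison of the Foxn11089/1089 library with the control asks the same of lobes whose epithelium carries a mutated *Foxn1*. In Epcam-positive cells 3 of 10 members were higher (*Bmpr2*, *Nog* and *Id1*) and 1 was lower (*Bmp5*), where 18.9% of genes were higher and 8.12% lower, and the members' median log2 ratio was 0.63. Relative to the median gene *Nog* and *Id1* stayed higher and *Bmp5* lower, with 12.5% of genes higher and 12% lower, and *Bmpr2* did not stay past 2-fold. In Pdgfra-positive cells 1 of 10 was higher (*Id1*) and 0 lower, against 6.59% and 6.03% of genes, with a median of 0.42. The mesenchymal share is near that of all genes.

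In Cdh5-positive cells of the Foxn11089/1089 library 3 of 6 members were higher (*Bmp4*, *Bmpr1a* and *Id1*) and 0 lower, against 15.2% and 5.7% of genes. *Bmp4* and *Bmpr1a*, with 0 control UMIs, could again only be higher. The median log2 ratio of these members, 1.49, was 0.71 with *Bmp4* and *Bmpr1a* at their lower bounds, where all genes had 0.22. In Ptprc-positive cells 2 of 5 members were higher (*Bmp2* and *Id3*) and 0 lower, against 12.5% and 6.15% of genes, with a median of 0.94. Relative to the median gene 1 of these 5 stayed past 2-fold, *Bmp2*, where 8.91% of genes were higher and 9.16% lower. Both comparisons share the control library, so their directions are not independent of each other.

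**Figure D1:**
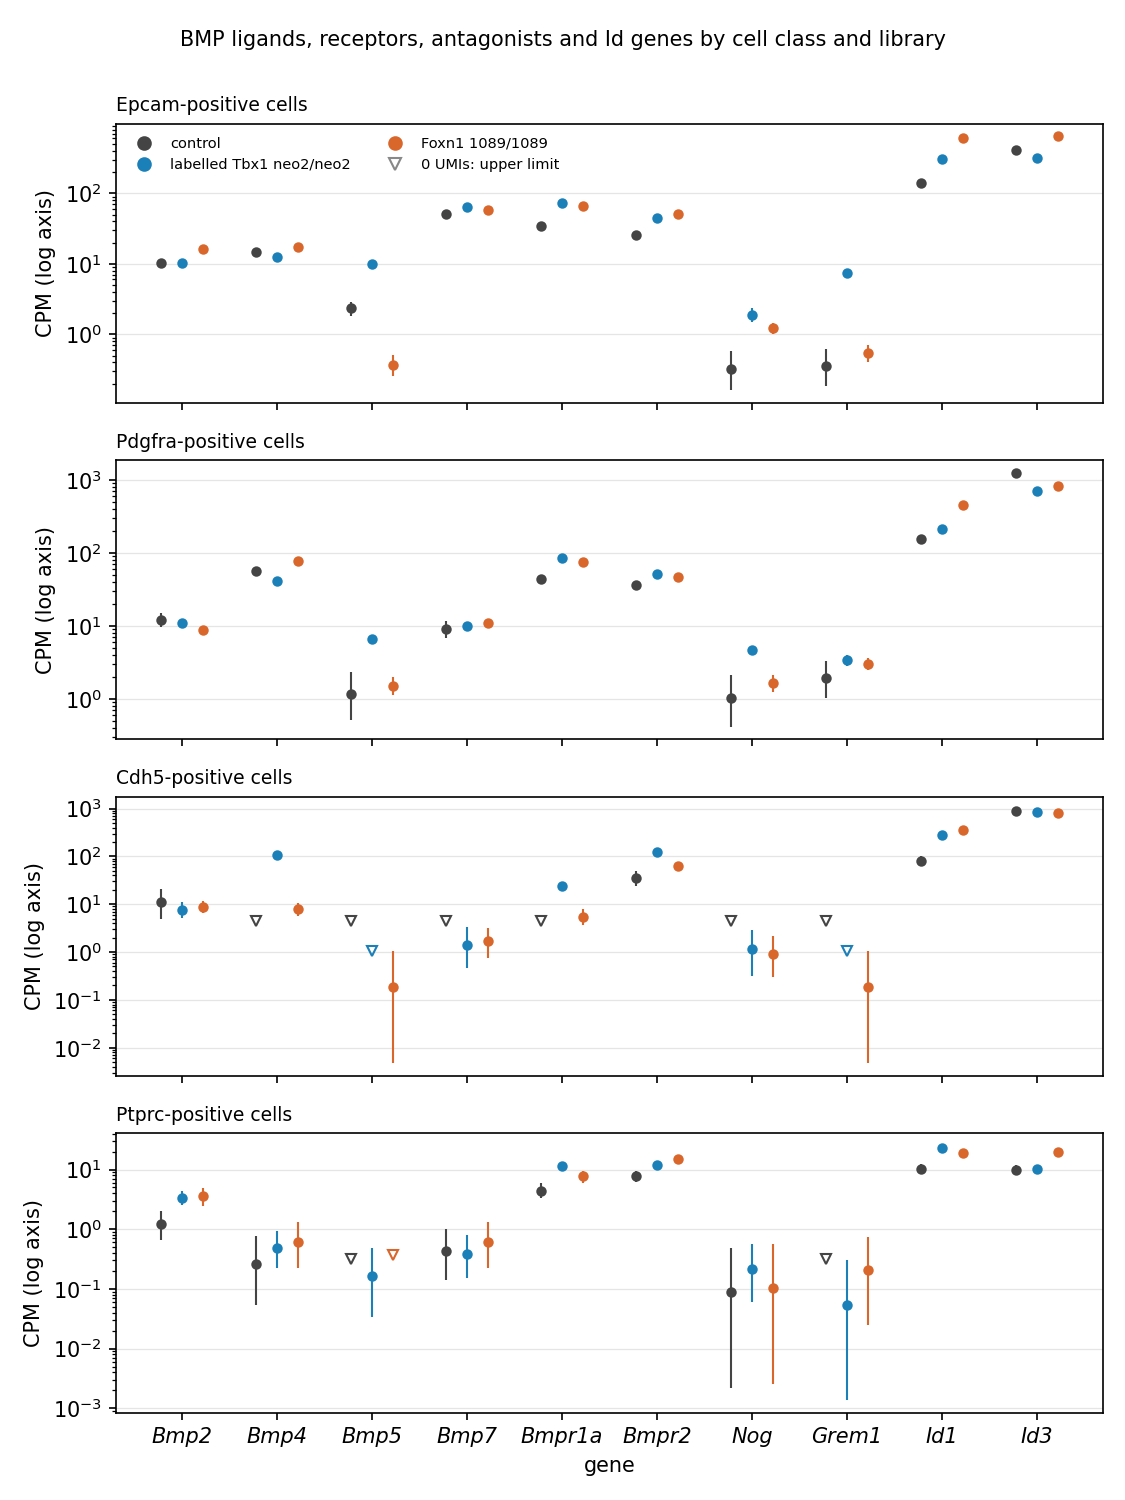
Level of the 10 members (horizontal axis) in CPM on a log axis, in 1 panel for each class, with colours for the 3 libraries, exact Poisson 95% bars and open triangles for the upper limit where a class held 0 UMIs. *Id1* and *Id3* stand at 79.9 CPM or above in the Epcam-, Pdgfra- and Cdh5-positive panels of each library, and *Nog* stays at 4.61 CPM or below in each panel.

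*Bmp4* (ENSMUSG00000021835, chr14:46383520-46390669, minus strand) encodes a ligand made in the thymic primordium and the mesenchyme around it. In Pdgfra-positive cells it was at 56.3 CPM (50.8 to 62.2) in the control library, 40.9 (38.9 to 43.0) in the Tbx1 neo2/neo2-labelled library and 78.6 (75.7 to 81.5) in the Foxn11089/1089 library. Relative to the control these are ratios of 0.726 (0.649 to 0.815) and 1.40 (1.25 to 1.56), or −0.80 and 0.34 on the relative log2 scale, so the compared libraries moved apart without passing 2-fold. The shares of mesenchymal cells with a *Bmp4* UMI at 2000 UMIs followed the same order, at 10.7%, 7.86% and 13.2%, and were 37.0%, 46.1% and 56.8% as sequenced.

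Epithelial *Bmp4* was lower than mesenchymal *Bmp4* in each library. Epcam-positive cells held 14.8 CPM (13.5 to 16.1) in the control, 12.4 (11.4 to 13.5) in the Tbx1 neo2/neo2-labelled library and 17.5 (16.7 to 18.3) in the Foxn11089/1089 library. Mesenchyme exceeded epithelium 3.81-fold (3.32 to 4.36), 3.30-fold (2.98 to 3.65) and 4.49-fold (4.23 to 4.77). The epithelial ratios to the control were 0.839 (0.741 to 0.950) and 1.18 (1.07 to 1.31), both within 2-fold. In Ptprc-positive cells *Bmp4* had 3, 9 and 6 UMIs, the lowest class in the libraries other than the control, where it did not differ beyond counting error from the endothelium.

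Endothelial *Bmp4* set the libraries apart most. *Bmp4* was found in 0 of 51 Cdh5-positive control cells, where 3 counts would be 5.88% of cells, and the level there was 0 CPM (0 to 4.46). In the Tbx1 neo2/neo2-labelled library 57 of 94 cells, 60.6%, held 384 UMIs, a level of 109 CPM (98.4 to 121), and in the Foxn11089/1089 library 17 of 108 cells, 15.7%, held 43 UMIs, a level of 8.02 CPM (5.80 to 10.8). Against a floor of 3 counts in the control class, these levels were at least 30.1-fold and at least 2.21-fold higher. In the Tbx1 neo2/neo2-labelled library endothelium thus carried more *Bmp4* than mesenchyme, 2.67-fold (2.38 to 2.99), while in the Foxn11089/1089 library the order of classes was mesenchyme, epithelium, endothelium and blood cells, each neighbour differing beyond counting error.

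The endothelial signal of the Tbx1 neo2/neo2-labelled library was spread over cells. A cell with the transcript held a median of 5 *Bmp4* UMIs and at most 35, and the 10 cells with the most UMIs held 40.6% of them. In the Foxn11089/1089 library the 11 cells with the most UMIs held 86.0%. At 2000 UMIs, 25.6% of 90 cells had a *Bmp4* UMI in the Tbx1 neo2/neo2-labelled library and 0.935% of 107 in the Foxn11089/1089 library, where 0 of 48 control cells had one and 3 counts would be 6.25%. At equal depth, the difference of the Foxn11089/1089 library from the control was therefore not detectable. Without likely doublets its *Bmp4* count in the class was 11 UMIs, and in cells with no UMI of the other class genes it was 9. Neither leaves a bound above the control floor. The order of classes given for that library rests on all 43 endothelial UMIs, without these alternatives. In the Tbx1 neo2/neo2-labelled library the bound was at least 23.3-fold without likely doublets, at least 31.7-fold in cells with no UMI of the other class genes, at least 29.3-fold in cells with at least 2 more endothelial genes, and at least 6.76-fold at 2000 UMIs, from 38 UMIs.

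Genes of other cell types were measured beside the endothelial *Bmp4*. The 6 mesenchymal markers summed to 20.6 CPM in Cdh5-positive control cells, with *Pdgfra*, *Twist1*, *Prrx1* and *Dcn* at 0, to 118 CPM in the Tbx1 neo2/neo2-labelled library and to 262 CPM in the Foxn11089/1089 library, with all 6 detected in both and *Col3a1* the most abundant at 13.3, 60.8 and 113 CPM. This list was highest in the Foxn11089/1089 library and *Bmp4* in the Tbx1 neo2/neo2-labelled library. The 6 pericyte genes summed to 14.5, 77.3 and 93.8 CPM there, with *Myl9* the most abundant and *Rgs5* and *Actg2* at 0 in the control. The 4 cartilage genes summed to 2.42, 42.6 and 5.03 CPM, with *Col2a1* the only one detected in the control, *Col9a1* the most abundant in the compared libraries and *Matn1* at 0 in all 3. The 7 epithelial markers summed to 42.3, 73.3 and 29.6 CPM, and the 5 genes of neural crest glia and neurons to 0, 10.2 and 2.42 CPM. The cartilage, epithelial and neural lists were thus highest in the Tbx1 neo2/neo2-labelled library, as was *Bmp4*. The mesenchymal and pericyte lists were highest in the Foxn11089/1089 library. The endothelial list itself summed to 2169, 3491 and 2243 CPM with 6 of 6 detected and *Cdh5* the most abundant. The part of cells or RNA of other types in the *Bmp4* counts was not tested beyond the alternatives given.

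*Bmp2* (ENSMUSG00000027358, chr2:133552159-133562885, plus strand) encodes a ligand closely related to *Bmp4*. In Epcam-positive cells it was at 10.4 CPM (9.31 to 11.5) in the control, 10.2 (9.26 to 11.2) in the Tbx1 neo2/neo2-labelled library and 16.3 (15.5 to 17.1) in the Foxn11089/1089 library, where the ratio to the control was 1.57 (1.40 to 1.77). In Pdgfra-positive cells it was at 12 (9.53 to 14.9), 11.0 (10 to 12.2) and 8.73 CPM (7.80 to 9.75). Epithelium and mesenchyme therefore differed in direction between the control and the Foxn11089/1089 library, though within 2-fold in each. Cdh5-positive cells had 9, 27 and 48 *Bmp2* UMIs, or 10.9 (4.98 to 20.7), 7.67 (5.05 to 11.2) and 8.95 CPM (6.60 to 11.9), which did not differ between libraries beyond counting error. Mesenchyme, endothelium and epithelium did not differ beyond counting error as neighbours in the control and in the Tbx1 neo2/neo2-labelled library, and epithelium was highest in the Foxn11089/1089 library, ahead of endothelium and mesenchyme, which did not differ from each other. Blood cells were lowest in all 3.

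Within blood cells, *Bmp2* was nearly confined to macrophage-like cells. Ptprc-positive cells held 14 *Bmp2* UMIs in 7 control cells, 61 in 13 cells of the Tbx1 neo2/neo2-labelled library and 35 in 16 cells of the Foxn11089/1089 library, or 1.22 (0.668 to 2.05), 3.34 (2.55 to 4.29) and 3.57 CPM (2.49 to 4.97). The ratios to the control were 2.73 (1.51 to 5.29) and 2.93 (1.54 to 5.89). Cells with at least 2 of 4 macrophage genes numbered 19, 38 and 40, or 3.29%, 12.7% and 12.5% of the class, and held 85.7%, 100% and 88.6% of its *Bmp2* UMIs. Inside this subset the level was 48.7 CPM (25.1 to 85.0) in the control, 41.0 (31.3 to 52.6) in the Tbx1 neo2/neo2-labelled library and 33.1 (22.5 to 47.0) in the Foxn11089/1089 library. Neither compared library was above the control there, but the counts are few. In the class, the cell with the most *Bmp2* UMIs held 7 of 14 in the control, 19 of 61 and 10 of 35. The intervals do not cover such clustering in cells, and meeting the definition depends on depth. The levels inside the subset are therefore less certain than the intervals show. The macrophage genes, 4 of 4 detected in each library, summed to 143, 465 and 535 CPM over the class, with *C1qb* the most abundant at 77.2, 208 and 241 CPM. The 4 thymocyte genes, all detected and led by *Cd3g*, summed to 551, 566 and 148 CPM. With at least 4 *Ptprc* UMIs required per cell, *Bmp2* was at 0 in the control class, which made the differences at least 3.66-fold and at least 4.12-fold, and in cells with no UMI of the other class genes the ratio of the Tbx1 neo2/neo2-labelled library was 4.61 (2.54 to 8.96).

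*Bmp7* (ENSMUSG00000008999, chr2:172868012-172940321, minus strand) encodes a ligand typical of epithelia. It was at 51.2 CPM (48.8 to 53.7) in Epcam-positive control cells, 64.2 (61.8 to 66.6) in the Tbx1 neo2/neo2-labelled library and 58.0 (56.6 to 59.5) in the Foxn11089/1089 library. In Pdgfra-positive cells it was at 9.03 (6.91 to 11.6), 9.95 (8.96 to 11.0) and 10.9 CPM (9.81 to 12). Epithelium exceeded mesenchyme 5.67-fold (4.39 to 7.44), 6.45-fold (5.79 to 7.21) and 5.35-fold (4.83 to 5.94), so the class pattern of *Bmp7* was alike in the 3 libraries. Its relative log2 ratios lay between −0.20 and 0.12 in these classes. Cdh5-positive cells held 0, 5 and 9 UMIs and Ptprc-positive cells 5, 7 and 6, too few to be tested, and these lowest classes did not differ from each other beyond counting error.

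*Bmp5* (ENSMUSG00000032179, chr9:75775364-75900310, plus strand) encodes a ligand of the same subgroup as *Bmp7*, and it moved in opposite directions in the epithelium of the compared libraries. Epcam-positive cells held 2.33 CPM (1.84 to 2.90) in the control, 9.96 (9.04 to 11.0) in the Tbx1 neo2/neo2-labelled library and 0.369 (0.260 to 0.508) in the Foxn11089/1089 library. The ratios to the control were 4.28 (3.36 to 5.52) and 0.159 (0.104 to 0.237), or 1.71 and −2.94 on the relative log2 scale. Shares of cells with a UMI followed, at 3.63%, 28.3% and 0.661% as sequenced and 0.203%, 1.62% and 0.0745% at 2000 UMIs. The lower level of the Foxn11089/1089 library was lower still in cells with no UMI of the other class genes, with a ratio of 0.105, and without likely doublets, with 0.0984. At 2000 UMIs the counts were 4, 13 and 3 UMIs, with ratios of 7.99 (2.47 to 33.6) and 0.367 (0.0537 to 2.17), so the lower level of the Foxn11089/1089 library was not detectable at that depth.

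Mesenchymal *Bmp5* was higher in the Tbx1 neo2/neo2-labelled library alone. Pdgfra-positive cells held 8 UMIs in the control, 250 in the Tbx1 neo2/neo2-labelled library and 55 in the Foxn11089/1089 library, or 1.18 (0.511 to 2.33), 6.70 (5.90 to 7.59) and 1.51 CPM (1.14 to 1.97). The ratios were 5.66 (2.83 to 13.2) and 1.28 (0.606 to 3.11). Without cells with at least 3 of 6 pericyte genes, the counts of the Tbx1 neo2/neo2-labelled library and the control were 162 and 3 UMIs, a ratio of 15.0 (5.05 to 73.6), and with cells of at least 1 *Pdgfra* UMI the ratio was 3.50 (2.20 to 5.90). At 2000 UMIs it was 3.20 (0.724 to 29.2), from 13 and 2 UMIs. Epithelium exceeded mesenchyme in the Tbx1 neo2/neo2-labelled library, mesenchyme exceeded epithelium 4.11-fold (2.66 to 6.41) in the Foxn11089/1089 library, and in the control epithelium and mesenchyme did not differ beyond counting error while blood cells lay below both. Endothelium held 0, 0 and 1 *Bmp5* UMIs and blood cells 0, 3 and 0, so no expression was read in either.

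*Bmpr1a* (ENSMUSG00000021796, chr14:34410734-34503341, minus strand) encodes a type I receptor for *Bmp2* and *Bmp4*. Epcam-positive cells held 34.2 CPM (32.3 to 36.2) in the control, 73.0 (70.5 to 75.6) in the Tbx1 neo2/neo2-labelled library and 66.6 (65.0 to 68.2) in the Foxn11089/1089 library. Pdgfra-positive cells held 43.5 (38.7 to 48.8), 85.3 (82.3 to 88.3) and 75.7 CPM (72.9 to 78.6). The receptor was thus higher in epithelium and mesenchyme of both compared libraries, with ratios of 2.14 (2.0 to 2.29) and 1.95 (1.83 to 2.08) in epithelium and 1.96 (1.74 to 2.21) and 1.74 (1.54 to 1.97) in mesenchyme. On the relative log2 scale these 4 ratios lay between 0.63 and 0.71, so the 2-fold line separates values that are close to each other. At 2000 UMIs the epithelial shares were 5.74%, 13.4% and 12.1%.

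Blood cells held 4.45 (3.31 to 5.85), 11.4 (9.89 to 13) and 7.66 CPM (6.03 to 9.60) of *Bmpr1a*, with ratios of 2.56 (1.88 to 3.55) and 1.72 (1.19 to 2.51). These levels were above the 0.303, 0.478 and 1.05 CPM of the red blood cells. With cells thinned to 2000 UMIs the former ratio was 1.10 (0.236 to 4.33), from 4 and 7 UMIs, and thus no longer past 2-fold. In thymocyte-gene cells of the class, those with at least 2 of the 4 thymocyte genes, *Bmpr1a* was at 5.50, 12.4 and 9.41 CPM, so the order of the libraries also held inside this subset. Endothelial *Bmpr1a* had 0 UMIs in the control, 84 in 43.6% of cells of the Tbx1 neo2/neo2-labelled library and 29 in 13.9% of cells of the Foxn11089/1089 library. Against the floor these were at least 6.57-fold and at least 1.49-fold higher, and the latter passes 2-fold only through the 0.5 UMI added to both sums. In the Foxn11089/1089 library the count fell to 7 UMIs without likely doublets, to 7 in cells with no UMI of the other class genes and to 15 without cells with cartilage, muscle, heart or neural genes, none of which leaves a bound above the floor. In the Tbx1 neo2/neo2-labelled library the bounds of these alternatives were at least 5.09-fold, 8.11-fold and 7.31-fold, and it was at least 1.42-fold at 2000 UMIs, from 8 UMIs. Mesenchyme was the highest class for *Bmpr1a* in each library, epithelium the next, and both differed beyond counting error.

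*Bmpr2* (ENSMUSG00000067336, chr1:59763400-59879014, plus strand) encodes a type II receptor that activates type I receptors. Epcam-positive cells held 25.4 (23.7 to 27.1), 44.7 (42.7 to 46.7) and 50.8 CPM (49.4 to 52.2) in the control, Tbx1-labelled and *Foxn1* libraries, with ratios of 1.76 (1.63 to 1.91) and 2.0 (1.86 to 2.15). The latter sits on the 2-fold line and fell below it in 7 alternatives, to 1.64 relative to the median gene, 1.68 at 2000 UMIs, 1.80 without thyroid-gene and parathyroid-gene cells, 1.87 without cells with cartilage, muscle, heart or neural genes, 1.92 in cells with no UMI of the other class genes, 1.96 with at least 1 *Epcam* UMI and 1.99 under 10% mitochondrial UMIs. Endothelium held 35.1 (23.5 to 50.4), 126 (115 to 139) and 63.8 CPM (57.2 to 70.9), with ratios of 3.60 (2.47 to 5.44) and 1.82 (1.24 to 2.76). *Bmpr2* was thus highest in endothelium in both compared libraries, while control endothelium did not differ beyond counting error from mesenchyme or epithelium, and there mesenchyme exceeded epithelium 1.43-fold (1.24 to 1.65). Mesenchyme held 36.3 (31.9 to 41.1), 51.8 (49.5 to 54.1) and 46.5 CPM (44.3 to 48.8). Blood cells, the lowest class in each library, held 7.68 (6.16 to 9.46), 12 (10.5 to 13.7) and 14.8 CPM (12.5 to 17.4), which is 1.57-fold (1.22 to 2.03) and 1.93-fold (1.47 to 2.54) the control level.

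*Nog* (ENSMUSG00000048616, chr11:89300638-89302332, minus strand) encodes noggin, a secreted protein that binds and blocks BMP ligands. Epcam-positive cells held 11, 81 and 122 UMIs, or 0.324 (0.162 to 0.580), 1.90 (1.51 to 2.37) and 1.22 CPM (1.01 to 1.45) in the control, Tbx1-labelled and *Foxn1* libraries. The ratios were 5.87 (3.12 to 12.2) and 3.75 (2.03 to 7.72), or 2.17 and 1.62 on the relative log2 scale, so epithelial *Nog* was higher in both compared libraries at low levels. Shares of cells with a UMI were 0.554%, 6.06% and 2.79% as sequenced and 0.0508%, 0.499% and 0.149% at 2000 UMIs. The ratio of the Tbx1 neo2/neo2-labelled library was then 9.83 (0.973 to 484) from 4 and 1 UMIs. That of the Foxn11089/1089 library was 2.93 (0.356 to 135) from 6 and 1 UMIs, so neither difference was detectable at that depth. The control share lies under the 0.912% that 3 counts would be in 329 red blood cells, which held 0, so expression of *Nog* in control epithelium cannot be told apart from background. In Pdgfra-positive cells *Nog* was at 1.04 (0.417 to 2.14), 4.61 (3.95 to 5.35) and 1.65 CPM (1.26 to 2.13), with ratios of 4.45 (2.11 to 11.2) and 1.59 (0.728 to 4.13). Mesenchyme was above epithelium beyond counting error in the control and the Tbx1 neo2/neo2-labelled library but not in the Foxn11089/1089 library. Endothelium held 0, 4 and 5 *Nog* UMIs and blood cells 1, 4 and 1.

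*Grem1* (ENSMUSG00000074934, chr2:113746164-113758646, minus strand) encodes gremlin, an antagonist of *Bmp2*, *Bmp4* and *Bmp7*. Epcam-positive cells held 12 UMIs in the control, 314 in the Tbx1 neo2/neo2-labelled library and 54 in the Foxn11089/1089 library, or 0.353 (0.183 to 0.617), 7.38 (6.58 to 8.24) and 0.538 CPM (0.404 to 0.702). The ratio of 20.9 (11.8 to 40.8) in the Tbx1 neo2/neo2-labelled library was the largest of any member that had UMIs in the control class, and that of the Foxn11089/1089 library was 1.52 (0.805 to 3.13). The control level is close to the 0.303 CPM of the red blood cells and cannot be told apart from background. At 2000 UMIs the class held 0 UMIs in the control and 9 in the Tbx1 neo2/neo2-labelled library, at least 7.37-fold more. Pdgfra-positive cells held 1.93 (1.02 to 3.29), 3.40 (2.84 to 4.05) and 3.0 CPM (2.46 to 3.62), with ratios of 1.77 (0.998 to 3.41) and 1.56 (0.875 to 3.02). Mesenchyme was thus the highest class in the control and the Foxn11089/1089 library, ahead of epithelium 5.45-fold (2.29 to 13.1) and 5.58-fold (3.99 to 7.88), and epithelium was highest in the Tbx1 neo2/neo2-labelled library, 2.17-fold (1.76 to 2.68) above mesenchyme. Endothelium and blood cells held 2 *Grem1* UMIs or fewer in each library.

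*Id1* (ENSMUSG00000042745, chr2:152736251-152737410, plus strand) encodes an inhibitor of basic helix-loop-helix factors and is a direct target of BMP-activated SMADs. In Epcam-positive cells it was at 140.3 CPM (136 to 144) in the control, 309.8 (304.5 to 315) in the Tbx1 neo2/neo2-labelled library and 611 (607 to 616) in the Foxn11089/1089 library. The ratios were 2.21 (2.14 to 2.28) and 4.36 (4.23 to 4.49), or 0.76 and 1.84 on the relative log2 scale. At 2000 UMIs the share of epithelial cells with *Id1* was 24.2%, 41.8% and 61.7%, far above the 0.935%, 1.21% and 1.98% of red blood cells. In Pdgfra-positive cells *Id1* was at 154 (145 to 164), 212 (208 to 217) and 458 CPM (451 to 465), with ratios of 1.38 (1.29 to 1.47) and 2.97 (2.79 to 3.17). In endothelium it was at 79.9 (61.8 to 102), 276 (258 to 293) and 356 CPM (340.5 to 373), with ratios of 3.45 (2.69 to 4.50) and 4.46 (3.49 to 5.79). *Id1* was thus at least 2-fold higher in epithelium, mesenchyme and endothelium of the Foxn11089/1089 library.

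The class order of *Id1* changed with the library, each neighbour differing beyond counting error. Mesenchyme led in the control, and epithelium led in both compared libraries, at 1.46 times (1.42 to 1.5) mesenchyme in the Tbx1 neo2/neo2-labelled library and 1.33 times (1.31 to 1.36) in the Foxn11089/1089 library. Blood cells held the least, 10.3 (8.52 to 12.3), 22.5 (20.4 to 24.8) and 18.6 CPM (16.0 to 21.5). Their ratios of 2.19 (1.78 to 2.71) and 1.81 (1.43 to 2.30) stand beside a red blood cell level of 2.42, 3.03 and 10.1 CPM, which rose most in the Foxn11089/1089 library. In thymocyte-gene cells *Id1* was at 8.52, 23.6 and 15.8 CPM, again highest in the Tbx1 neo2/neo2-labelled library.

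*Id3* (ENSMUSG00000007872, chr4:136143497-136145755, plus strand) encodes a related inhibitor and did not follow *Id1*. In Pdgfra-positive cells it was at 1223 CPM (1197 to 1250) in the control, 709 (701 to 718) in the Tbx1 neo2/neo2-labelled library and 836 (826 to 845) in the Foxn11089/1089 library. The ratios of 0.580 (0.566 to 0.594) and 0.683 (0.667 to 0.70) are −1.13 and −0.69 on the relative log2 scale, so mesenchymal *Id3* was lower in both compared libraries while *Id1* was higher. In Epcam-positive cells *Id3* was at 418 (411 to 425), 318 (313 to 324) and 641 CPM (636 to 646), with ratios of 0.761 (0.743 to 0.779) and 1.53 (1.5 to 1.56). Epithelial *Id3* thus fell below the control in the Tbx1 neo2/neo2-labelled library and lay above it in the Foxn11089/1089 library, within 2-fold both times. At 2000 UMIs the epithelial shares were 47.1%, 37.7% and 64.3% and the mesenchymal shares 78.5%, 61.2% and 71.2%.

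Endothelial *Id3* was at 895 (832 to 962), 868 (838 to 899) and 800.4 CPM (777 to 825), with ratios of 0.97 (0.895 to 1.05) and 0.894 (0.827 to 0.968). Mesenchyme was the highest class for *Id3* in the control and the Foxn11089/1089 library and endothelium in the Tbx1 neo2/neo2-labelled library. Blood cells held 9.77 (8.04 to 11.8), 10.1 (8.72 to 11.7) and 19.8 CPM (17.1 to 22.8), where red blood cells held 7.27 (4.66 to 10.8), 10 (7.71 to 12.8) and 16.7 (15.1 to 18.4). These intervals overlap in each library, so *Id3* of blood cells cannot be told apart from background. The ratio of the Foxn11089/1089 library in blood cells was 2.03 (1.60 to 2.58). It was 1.69 in cells with no UMI of the other class genes, 1.47 at 2000 UMIs and 1.83 without cells with cartilage, muscle, heart or neural genes, each under 2-fold, and 2.15 with at least 1 *Ptprc* UMI, 2.41 (1.82 to 3.20) without likely doublets and 2.69 (1.72 to 4.37) with at least 4 *Ptprc* UMIs.

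**Figure D2:**
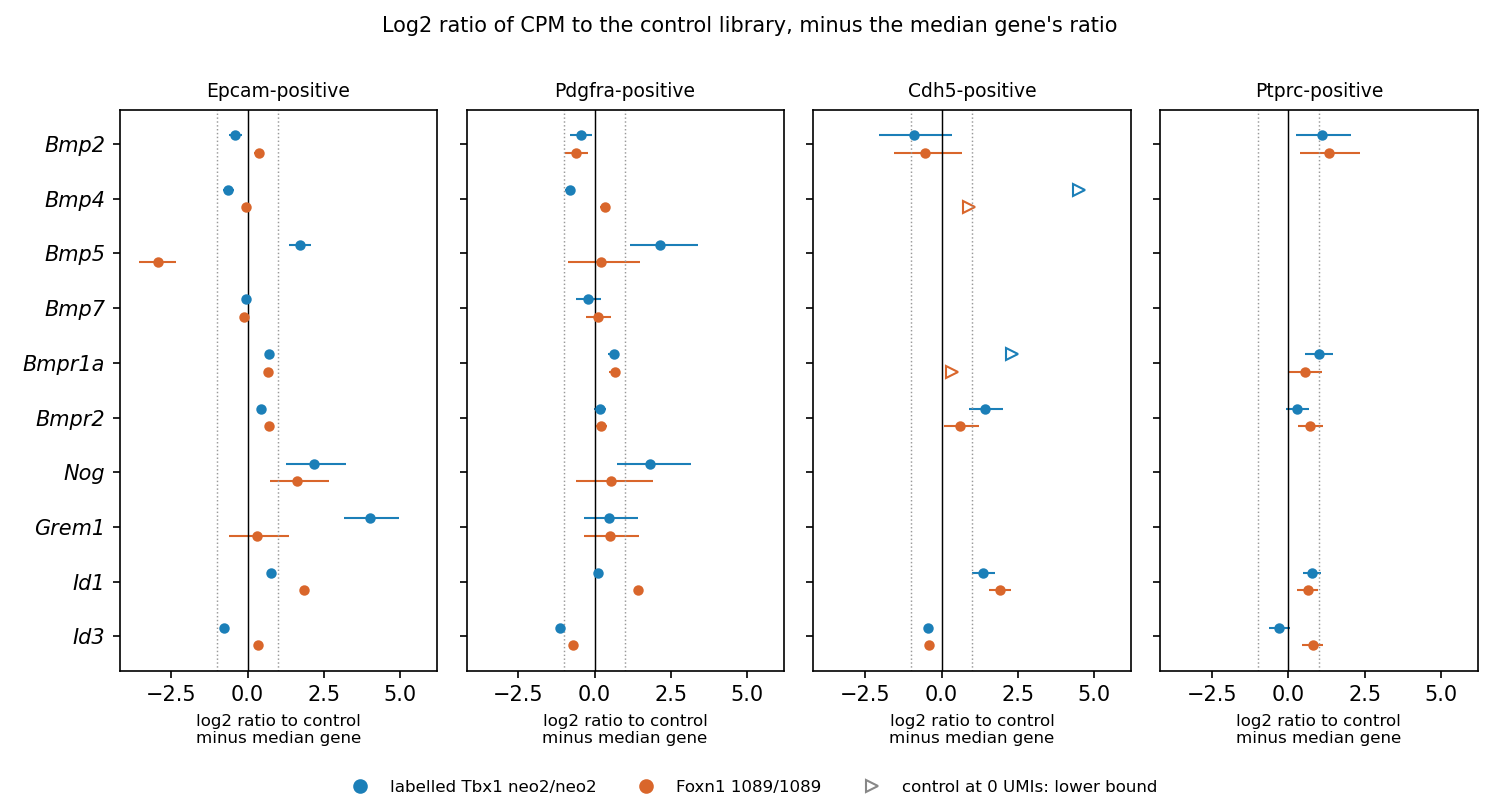
Log2 ratio to the control library minus the ratio of the median gene (horizontal axis) for the members tested in each class (vertical axis), in colours for the 2 compared libraries, with conditional binomial 95% bars, dotted lines at −1 and 1 and open triangles for lower bounds where the control held 0 UMIs. In Epcam-positive cells *Bmp5* stands at 1.71 and −2.94 in the compared libraries, *Grem1* at 4.0 and 0.32 and *Id1* at 0.76 and 1.84.

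Thyroid-like cells carried most of the epithelial *Grem1* of the Tbx1 neo2/neo2-labelled library. Epcam-positive cells with at least 2 of the thyroid genes *Nkx2-1*, *Pax8* and *Foxe1* numbered 4 in the control, 108 in the Tbx1 neo2/neo2-labelled library and 6 in the Foxn11089/1089 library, or 0.202%, 13.3% and 0.147% of the class. The 3 genes summed to 2.18, 214 and 2.95 CPM over the class, with 3 of 3 detected in each library and *Nkx2-1* the most abundant, at 88.3 CPM, in the Tbx1 neo2/neo2-labelled library. There, these cells held 293 of 314 *Grem1* UMIs, 93.3%, at 42.3 CPM (37.6 to 47.4), and 242 of 424 *Bmp5* UMIs, 57.1%, at 34.9 CPM (30.7 to 39.6). They held 33.3% of its *Nog* UMIs, 21.6% of *Id1*, 18.8% of *Bmpr1a*, 5.35% of *Bmp7* and 3.03% of *Bmp4*, so *Grem1* and *Bmp5* were concentrated in them and *Bmp4* and *Bmp7* were not. The 6 thyroid-gene cells of the Foxn11089/1089 library held 6 *Bmp5* UMIs, 39.3 CPM (14.4 to 85.5), and 5 *Grem1* UMIs, 32.7 CPM (10.6 to 76.4), levels whose intervals overlap those of the Tbx1 neo2/neo2-labelled library. The 4 control cells held 3 *Bmp5* UMIs and 0 of *Grem1*.

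Without thyroid-gene and parathyroid-gene cells, epithelial *Grem1* of the Tbx1 neo2/neo2-labelled library was 21 UMIs against 11 in the control, a ratio of 1.80 (0.828 to 4.13), which is no longer past 2-fold. *Bmp5* then stood at 2.25 (1.72 to 2.99) and *Nog* at 4.62 (2.39 to 9.80), both still past 2-fold. Without cells with cartilage, muscle, heart or neural genes *Grem1* stood at 14.3 (7.95 to 28.3). The higher *Grem1* thus moved with the thyroid-gene cells, and the higher *Nog* mostly lay outside them.

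Cells with a *Foxn1* UMI that met neither the thyroid-gene nor the parathyroid-gene definition numbered 1281, 580 and 2201. *Grem1* there was at 0.351, 0.574 and 0.467 CPM and *Nog* at 0.219, 0.957 and 0.954 CPM. *Bmp5* was at 2.11, 4.98 and 0.253 CPM, so its opposite movement in the compared libraries was also present in these cells. *Id1* was at 136, 250 and 647 CPM, *Bmpr1a* at 34.4, 70.0 and 63.0 CPM and *Bmp7* at 51.4, 77.9 and 58.6 CPM. *Bmp4*, at 15.8, 15.7 and 16.8 CPM, differed little between the libraries in these cells. The 5 thymic epithelial genes, all detected and led by *Pax1*, summed to 1591, 1573 and 794 CPM over the Epcam-positive class.

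Epithelial cells without a *Foxn1* UMI that also met neither definition numbered 671, 121 and 689. Lack of a *Foxn1* UMI depends on depth, which differed between libraries, so these cells need not be alike between them. They had *Nog* at 0.558, 5.58 and 1.93 CPM and *Id1* at 149, 581 and 790 CPM. Both were higher than in the cells with *Foxn1* in each library, though *Nog* of control epithelium cannot be told apart from background. In the cells without *Foxn1*, *Bmp5* was at 2.61, 6.05 and 0.193 CPM and *Bmp4* at 13.1, 4.65 and 27.9 CPM. This *Bmp4* is lower in the Tbx1 neo2/neo2-labelled library and higher in the Foxn11089/1089 library. Cells with at least 2 of the parathyroid genes *Gcm2*, *Pth* and *Chga* numbered 29 in the control, 0 in the Tbx1 neo2/neo2-labelled library and 1186 in the Foxn11089/1089 library, 29.1% of its class. The list summed to 948, 0.399 and 8013 CPM, with *Pth* the most abundant in the control and the Foxn11089/1089 library at 687 and 6065 CPM and *Gcm2* at 0 in the Tbx1 neo2/neo2-labelled library. These cells held a median of 985 UMIs of the list in the control and of 4 in the Foxn11089/1089 library, where 13.4% of Pdgfra-positive cells, 38.9% of Cdh5-positive cells, 27.0% of Ptprc-positive cells and 9.67% of red blood cells met the same definition. In that library parathyroid cells are therefore not separated from free RNA by it, and the members are not described in them. The subsets with and without a *Foxn1* UMI leave out the 1186 cells by this same definition. Without thyroid-gene and parathyroid-gene cells the *Bmp5* ratio of the Foxn11089/1089 library was 0.107 (0.0572 to 0.188).

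**Figure D3:**
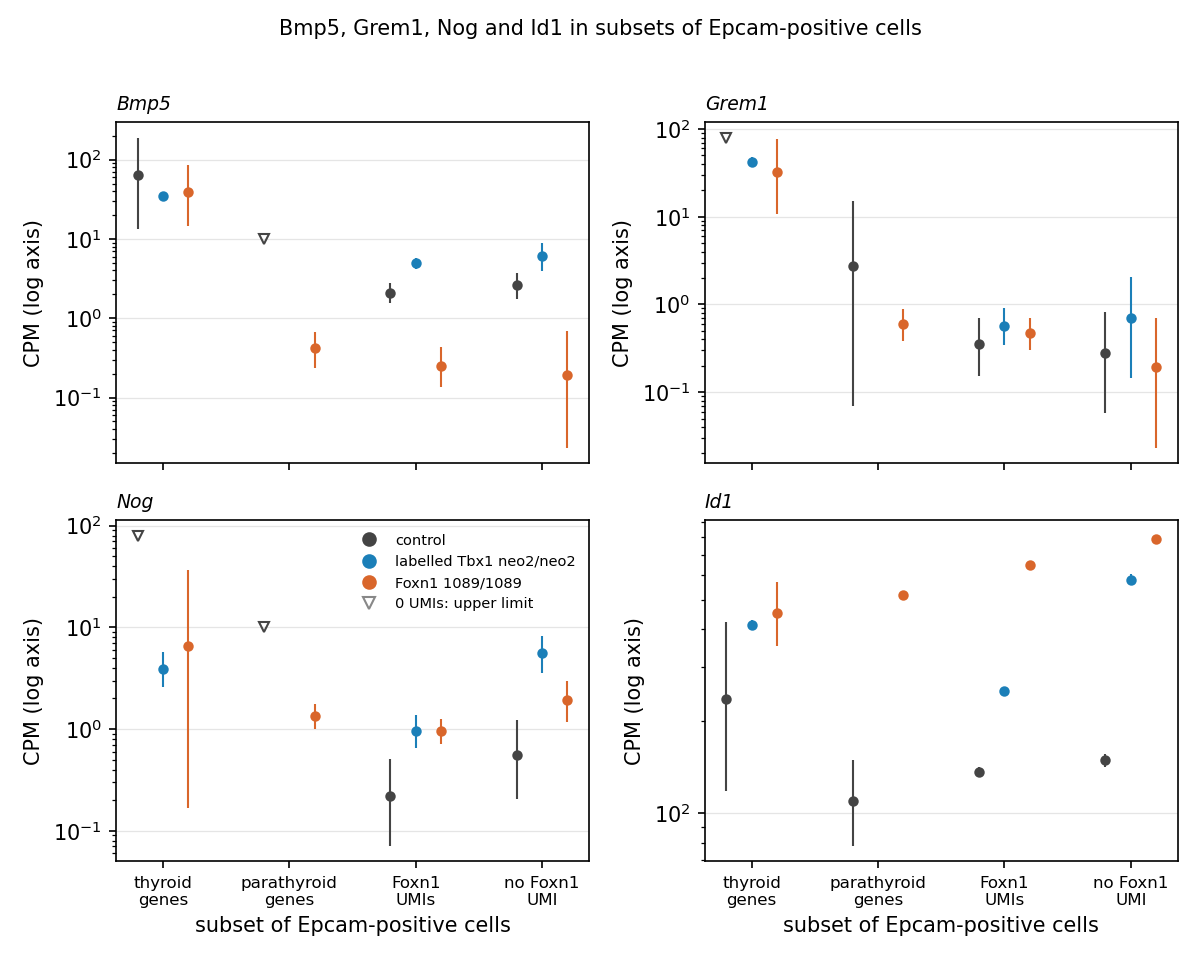
Level in CPM with exact Poisson 95% bars (vertical axis) of *Bmp5*, *Grem1*, *Nog* and *Id1* in 4 separate subsets of Epcam-positive cells (horizontal axis), in colours for the 3 libraries. The parathyroid-gene subset of the Foxn11089/1089 library is not separated from free RNA. *Grem1* reaches 42.3 CPM in thyroid-gene cells of the Tbx1 neo2/neo2-labelled library and stays at 0.698 CPM or below in cells with or without a *Foxn1* UMI in each library.

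Cells with genes of other types were also counted in mesenchyme. Cells with pericyte genes made up 26.4%, 46.4% and 31.0% of the Pdgfra-positive class, and the 6 genes, all detected, summed to 493, 1190.3 and 499 CPM, led by *Tpm2* in the control and the Foxn11089/1089 library and by *Acta2* in the Tbx1 neo2/neo2-labelled library. Cartilage-gene cells numbered 0, 118 and 17. Meeting either definition depends on depth, at medians of 9488, 25709 and 14501 UMIs in this class, so these shares and numbers need not reflect make-up. The pericyte-gene share was higher in the Foxn11089/1089 library than in the control although the summed levels were alike. The 4 cartilage genes summed to 33.9, 121 and 57.8 CPM, led by *Col9a1*, with *Acan* and *Matn1* at 0 in the control, *Matn1* at 0 in the Tbx1 neo2/neo2-labelled library and *Acan* at 0 in the Foxn11089/1089 library. In pericyte-gene cells *Bmp5* was at 2.46, 4.06 and 1.88 CPM, and in the other Pdgfra-positive cells at 0.636, 9.65 and 1.33 CPM, so mesenchymal *Bmp5* of the Tbx1 neo2/neo2-labelled library lay mainly outside the pericyte-gene cells. *Nog* was at 0, 3.06 and 0.626 CPM in pericyte-gene cells and at 1.48, 5.82 and 2.20 CPM in the others, and at 7.82 CPM in cartilage-gene cells of the Tbx1 neo2/neo2-labelled library. Cartilage-gene cells have no control to be set against.

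Further lists describe what else the classes held, and their part in the member counts was not tested. In epithelium the 6 mesenchymal markers summed to 56.2, 110.4 and 199.8 CPM, the 4 cartilage genes to 17.6, 45.1 and 91.7, with *Acan* at 0 in the control, and the 6 pericyte genes to 50.93, 107.8 and 50.95. The mesenchymal and cartilage lists were thus lowest in the control and highest in the Foxn11089/1089 library. The 4 skeletal muscle genes summed to 1.15, 11.3 and 8.53 CPM in epithelium and 20.9, 21.1 and 19.6 in mesenchyme, led there by *Tnnt1*, with *Myog* and *Actc1* at 0 in control mesenchyme. The 3 heart muscle genes summed to 2.42, 1.99 and 1.31 CPM in endothelium, with *Nkx2-5* at 0 in each library and *Myl7* the most abundant. The 5 genes of neural crest glia and neurons summed to 5.51, 12.5 and 9.51 CPM in epithelium and 5.78, 13.9 and 6.2 in mesenchyme. These levels of muscle and neural genes were low in each library. The 3 genes of lung and airway epithelium summed to 37.0, 115 and 78.8 CPM in epithelium, with *Trp63* at 36.0, 86.6 and 76.9 and *Sftpc* at 0 in the control and the Foxn11089/1089 library. The 6 red blood cell genes summed to 1464, 686 and 19364 CPM in epithelium and 2922, 1865 and 20991 in mesenchyme. In endothelium they summed to 15755, 4375 and 10212 CPM and in blood cells to 4432, 2739 and 15392. They were highest in the control in endothelium and in the Foxn11089/1089 library in the other classes. The 6 dissociation stress genes summed to 2446, 2282 and 2827 CPM in epithelium and 3245, 2233 and 2893 in mesenchyme, and the 2 cycling genes *Mki67* and *Top2a* to 398, 702 and 525 CPM in epithelium and 290.3, 412 and 502 in mesenchyme. In endothelium the stress genes summed to 1129, 850.2 and 1049 CPM and the cycling genes to 263, 375 and 522, and in blood cells to 569.7, 672 and 972 and to 458, 676 and 589.5. Cycling genes were lowest in the control in each class. Stress genes were highest in the Foxn11089/1089 library in epithelium and blood cells and in the control in mesenchyme and endothelium.

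Of 49 other genes of the pathway, 38 were tested in epithelium and in mesenchyme, 24 in endothelium and 20 in blood cells. In Epcam-positive cells of the Tbx1 neo2/neo2-labelled library 16 were higher and 1 lower (*Msx1*), with a median log2 ratio of 0.90, and in the Foxn11089/1089 library 12 were higher and 2 lower, with 0.83, or 0.78 with genes at 0 set at their bounds. The other pathway genes thus lay above the 17.7% and 18.9% of all genes in both. In the Foxn11089/1089 library the ligands *Bmp3*, *Gdf6* and *Gdf10* were among those higher. The median of its 4 tested ligands was 1.43, or 1.03 with genes at 0 at their bounds. A gene at 0 in the control could be counted as higher but not as lower. In the Tbx1 neo2/neo2-labelled library the antagonist *Chrdl1* stood at 2.37 CPM against 0.236 in the control, 10.1-fold (4.92 to 24.0), and the transducer *Smad9* at 3.95 against 0.619, 6.38-fold (4.04 to 10.6). The activin-binding antagonist *Fst* stood at 2.09 against 0.560, 3.74-fold (2.26 to 6.50), and the antagonist *Sostdc1* at 3.74 against 1.06, 3.52-fold (2.44 to 5.21).

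In epithelium of the Foxn11089/1089 library the targets *Id2* and *Id4* were higher together with *Id1*. *Id4* stood at 106 CPM against 11.8 in the control, 8.99-fold (8.14 to 9.96), and *Id2* at 418 against 76.9, 5.43-fold (5.22 to 5.65). The co-receptor *Eng* stood at 1.94 against 0.324, 6.00-fold (3.28 to 12.2), and *Smad9* at 3.06 against 0.619, 4.95-fold (3.18 to 8.11). Of the 8 other targets listed, 4 were higher and 0 lower in this comparison, against 18.9% and 8.12% of all genes.

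In Pdgfra-positive cells of the Tbx1 neo2/neo2-labelled library 15 of 38 were higher and 1 lower (*Msx1*), with a median of 0.84, against 7 and 1 (*Eng*) in the Foxn11089/1089 library, with 0.34, or 0.32 with genes at their bounds. Of all genes 16.6% were higher and 4.87% lower in the former and 6.59% and 6.03% in the latter. *Sostdc1* had 0 UMIs in control mesenchyme and 5.25 CPM in the Tbx1 neo2/neo2-labelled library, at least 11.8-fold higher. Its part in the counts of both compared libraries had to be on the higher side. The ligand *Bmp3* rested on 3 control UMIs, 7.40 CPM against 0.444 or 16.7-fold (5.64 to 81.3). The target *Msx2* stood at 6.27 against 0.592, 10.6-fold (4.08 to 39.2), and the ligand *Gdf5*, known from joints and cartilage, at 6.68 against 0.889, 7.51-fold (3.40 to 20.7). These genes were low in control mesenchyme. In the Foxn11089/1089 library *Chrdl1* stood at 6.34 against 2.67, 2.38-fold (1.47 to 4.08). *Id4* stood at 14.3 against 6.52, 2.19-fold (1.61 to 3.06), and *Id2* at 358 against 167, 2.14-fold (2.02 to 2.28). Relative to the median gene, *Id4* was at 1.99 times and *Id2* at 1.94 times the control, both under 2-fold.

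Endothelium of the Tbx1 neo2/neo2-labelled library had 14 of 24 higher and 1 lower (*Msx1*), against 25.9% and 4.94% of all genes, with a median of 1.14, or 1.06 with genes at their bounds. Of these genes *Sost*, Nbl1 and *Id4* had 0 UMIs in the control class and could only be higher, in the Foxn11089/1089 library as well. The antagonist *Sost* had 0 UMIs in the control and 170, or 48.3 CPM, in that library, at least 13.3-fold higher, and the inhibitory target *Smad6* stood at 102 against 7.26, 14.0-fold (6.39 to 38.5). The protease *Bmp1* stood at 46.3 against 6.05, 7.65-fold (3.21 to 23.9), and the modulator *Twsg1* at 24.4 against 3.63, 6.73-fold (2.23 to 33.3). In the Foxn11089/1089 library 7 were higher and 1 lower, against 15.2% and 5.7% of all genes, with a median of 0.39, or 0.28 with genes at their bounds. *Sost* had 15 UMIs there, too few for a bound. *Twsg1* stood at 14.5 CPM, 4.01-fold (1.32 to 19.8), *Bmp1* at 19.0, 3.14-fold (1.30 to 9.89), and the homeobox target *Msx1* at 14.2 against 36.3, a ratio of 0.390 (0.253 to 0.617).

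In Ptprc-positive cells 3 of 20 were higher and 0 lower in the Tbx1 neo2/neo2-labelled library (*Acvr1*, *Bmp1* and *Id2*), with a median of 0.43, and 5 were higher and 1 lower (*Fstl3*) in the Foxn11089/1089 library, with 0.34. *Id2*, which early lymphoid and innate cells use, stood at 56.8 CPM in the control, at 122 in the Tbx1 neo2/neo2-labelled library, 2.15-fold (1.97 to 2.35), and at 276 in the Foxn11089/1089 library, 4.87-fold (4.47 to 5.31). Relative to the median gene these ratios were 1.68, under 2-fold, and 4.16. The share of pathway genes is near the 13.4% of all genes in the former library and above the 12.5% in the latter.

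Genes with a pattern like that of a member were ranked by the Pearson correlation of log2(CPM + 1) over the 12 sums of class and library, among 13553 genes with at least 300 UMIs. The sums share libraries and classes, so the values are descriptions. The closest for *Bmp2* were *Tor1aip2* (0.950), *Amacr* and *Zfp821*, for *Bmp4* *Klhl13* (0.973), *Spin4* and *Nxnl2*, and for *Bmp5* *Vstm2b* (0.971), *Fmod* and *Mir143hg*. Those for *Bmp7* were *Rragd* (0.992), *Fat3* and *Psrc1*. For the receptors they were *Twsg1* (0.985), *Dync2h1* and *Frs2* beside *Bmpr1a*, and *Prom1* (0.982), *Reep3* and *Wwc2* beside *Bmpr2*. The antagonist *Nog* had *Cadm2* (0.983), *Ndrg4* and *Gm11266*, and *Grem1* had *Greb1* (0.964), *Kctd8* and *Plppr1*. *Id1* was closest to *Ctif* (0.977), *3222401L13Rik* and *N6amt1*, and *Id3* to *Anxa5* (0.993), *Ly6h* and *Akt1s1*. Of these genes *Twsg1* is itself in the pathway list, and the lowest of the 30 values was 0.942, for *Mir143hg*.

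Promoter sequence is shown for *Bmp4*, *Bmp5* and *Grem1*, the members with the widest differences between libraries, so that their base composition can be compared. RefSeq sequences on GRCm38.p6 were matched for 6 of 10 members: these 3, *Bmpr1a*, *Bmpr2* and *Id3*. The set of windows used held no entry for *Bmp2*, *Bmp7*, *Nog* and *Id1*, which says nothing about RefSeq itself. Each window is the 250 bases before the RefSeq start of the gene, which for *Bmp5* and *Grem1* differs slightly from the GENCODE start given above, 5′ to 3′ on its own strand: chr14:46390670-46390919 (minus) for *Bmp4*, chr9:75775115-75775364 (plus) for *Bmp5* and chr2:113758649-113758898 (minus) for *Grem1*. The searched motifs, on both strands, were GGCGCC (a GC-rich SMAD element), GACGC (the core bound by FOXN1) and AGGTGTGA (a T-box element), and capitals mark matches.
Bmp4: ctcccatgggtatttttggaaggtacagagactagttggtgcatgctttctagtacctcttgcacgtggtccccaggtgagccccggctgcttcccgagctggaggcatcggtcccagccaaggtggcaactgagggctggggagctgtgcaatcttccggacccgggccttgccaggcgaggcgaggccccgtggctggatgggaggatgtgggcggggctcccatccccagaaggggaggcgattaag
Bmp5: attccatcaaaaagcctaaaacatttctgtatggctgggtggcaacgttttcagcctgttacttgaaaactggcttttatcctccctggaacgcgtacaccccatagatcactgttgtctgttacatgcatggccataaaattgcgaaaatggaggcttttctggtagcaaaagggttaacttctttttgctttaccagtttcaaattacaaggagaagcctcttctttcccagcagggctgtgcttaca
Grem1: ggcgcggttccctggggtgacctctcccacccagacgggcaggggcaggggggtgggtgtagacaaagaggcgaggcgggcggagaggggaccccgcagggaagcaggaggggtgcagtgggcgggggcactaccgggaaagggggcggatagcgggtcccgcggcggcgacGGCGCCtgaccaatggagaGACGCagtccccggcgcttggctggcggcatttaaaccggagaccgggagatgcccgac
*Grem1* held 1 GGCGCC and 1 GACGC, which do not overlap, and the windows of *Bmp4* and *Bmp5* held none of the 3 motifs. Of 32851 windows of the same length, 9.59% hold GGCGCC, 22.6% GACGC and 1.12% AGGTGTGA. A match is a description of the sequence and not a bound site, and its absence says nothing about a factor. In base composition the windows differed, with 63.2% G and C for *Bmp4*, 42.8% for *Bmp5* and 72% for *Grem1*, where the median window has 52.4%.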

How the data were processed

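The deposited values are raw counts of UMIs per gene and cell barcode, which the authors made with Cell Ranger 3.0.0 on the mouse genome mm10 according to their processing notes. No normalization had been applied to them. Groups are the genotypes of the sample labels, with 1 library each, so each compared library was set against the control within a class and no test was run. The 10 members, the 49 other pathway genes and the marker lists were chosen with earlier results of these data known.

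Each level is a sum over the cells of a class, scaled to the total of that class in the library. Levels have exact Poisson intervals, shares of cells exact Clopper-Pearson intervals and ratios conditional binomial intervals, at 95%. A gene was tested in a class with at least 30 UMIs over the 3 libraries and called at 2-fold after 0.5 UMI was added to both sums. Single ratios are without this addition, and a ratio to 0 was bounded at 3 counts per library. Other pathway genes are named when past 2-fold, at most 4 per class and comparison by size, among genes with at least 100 UMIs, and 1 gene that this rule picks is not reported here. Likely doublets were the highest Scrublet scores, 0.8% of a library's barcodes for every 1000 of them. The lists were class markers, thymic epithelium, thyroid, parathyroid, pericyte, cartilage, skeletal and heart muscle, neural, lung and airway, thymocyte, macrophage, red blood cell, dissociation stress and cycling genes.

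Alternatives changed 1 choice each: at least 1 or 4 UMIs of the class gene, no UMI of the other class genes, under 10% mitochondrial UMIs, thinning to 2000 UMIs, centring on the median gene, at least 100 UMIs per gene, and leaving out likely doublets or thyroid-gene, parathyroid-gene and pericyte-gene cells. A further 2 were chosen after seeing the data: Cdh5-positive cells with at least 2 more endothelial genes, and leaving out cells with at least 2 cartilage, skeletal muscle, heart muscle or neural genes. The computation of ratios and intervals was run on simulated Poisson sums with known ratios. These sums leave out the clustering of UMIs in cells, so the run does not test the intervals for it. Gene coordinates are from GENCODE on GRCm38. Python 3.11.15, numpy 2.4.6, scipy 1.17.1, pandas 2.3.3, scanpy 1.11.5 and matplotlib 3.10.9 were used.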

Additional observations from a re-analysis of the deposited data

Results flagged for a closer look

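Cells that met no class definition, 2326 in the control library, 2641 in the Tbx1 neo2/neo2-labelled library and 3178 in the Foxn11089/1089 library, were not part of the comparisons, and several members lay above the control level there. *Nog* was at 11.2 times the control level in the Tbx1 neo2/neo2-labelled library, with 212 UMIs against 17, and *Grem1* at 8.31 times, with 65 UMIs against 7. *Bmp5* was at 3.75 times, with 113 UMIs against 27, *Bmp2* at 3.20 times, *Bmpr1a* at 3.11 times, *Bmpr2* at 2.78 times and *Id1* at 2.33 times. These are 7 of 10 members, where 26.2% of genes were higher and 6.43% lower. Measured against the median gene, *Id1* was at 1.74 times and the other 6 stayed past 2-fold, where 16.2% of genes were higher and 13.5% lower. In the Foxn11089/1089 library *Id1* was at 5.07 times the control level in such cells, *Bmp2* at 2.88 times, *Bmp4* at 2.36 times, with 1014 UMIs against 403, *Bmpr1a* at 2.36 times, *Grem1* at 2.81 times, with 21 UMIs against 7, and *Nog* at 2.21 times, with 40 UMIs against 17. These are 6 of 10 members, against 16.3% of genes higher and 9.51% lower. Set against its median gene, *Nog* was at 1.95 times and the other 5 stayed past 2-fold, where 12.2% of genes were higher and 12.2% lower. In the Tbx1 neo2/neo2-labelled library 106 of these cells with skeletal muscle genes held 40.1% of the *Nog* UMIs and 148 with cartilage genes held 35.8%. Pericyte-gene cells held 36.9% of the *Grem1* UMIs. The median depth of these cells was 9977, 1401 and 2956.5 UMIs in the 3 libraries, and why the levels differed was not tested.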

How the results depend on the processing

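No call changed its direction under any alternative run, though *Bmp4* and *Bmpr1a* in Cdh5-positive cells, with 0 control UMIs, could only be higher. Recomputed counts of members past 2-fold stayed within 1.5 times the reported count 70 times and moved further 12 times. With cells thinned to 2000 UMIs, the count in Epcam-positive cells went from 5 to 2 in the Tbx1 neo2/neo2-labelled library and from 4 to 2 in the Foxn11089/1089 library, that of Pdgfra-positive cells in the Tbx1 neo2/neo2-labelled library from 2 to 0, and in the Foxn11089/1089 library that of Cdh5-positive cells from 3 to 1 and that of Ptprc-positive cells from 2 to 0. Thinning leaves fewer members with 30 UMIs. Centring on the median gene gave 3 in Epcam-positive and 1 in Ptprc-positive cells of the Tbx1 neo2/neo2-labelled library, where 5 and 3 were reported. In Ptprc-positive cells of the Foxn11089/1089 library, centring gave 1, at least 1 UMI of the class gene gave 4, at least 4 UMIs gave 4, no UMI of the other class genes gave 1, and leaving out cells with cartilage, muscle, heart or neural genes gave 1. Beyond thinning and centring, the cause was not tested. Of the 24 calls, 24 remained without likely doublets and 18 after centring, and 9 of the 12 that could be tested did after thinning. Without likely doublets, *Bmp4* and *Bmpr1a* in Cdh5-positive cells of the Foxn11089/1089 library rested on 11 and 7 UMIs against 0 in the control. Their bounds, at least 0.563-fold and at least 0.358-fold, were not above the control floor, so both calls remained only through the addition to both sums. Of the log2 ratios, 531 stayed within their counting interval and 79 did not. Among the shares of cells with a UMI, 109 were counted as moved after thinning and 11 as the same. No paired analysis was possible because each genotype has 1 library. The Cdh5-positive class was the smallest, with 51 control cells.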
